A study of Arabidopsis thaliana with 8 samples.

Results

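The response described here is that of dark-grown Arabidopsis thaliana seedlings to 30 min of red light on medium without lincomycin. It compares 4 of the 8 arrays of the series, chosen by their labels alone: the 2 arrays of seedlings kept in darkness (the dark arrays) and the 2 arrays of seedlings collected after the light (the red arrays). All seedlings were wild type of the Col-0 ecotype, were 4 days old, had grown at 21 °C on medium with 1% sucrose, and were harvested whole for total RNA. The other 4 arrays, which entered the estimate of spread behind every test, repeat the dark and red conditions on medium with lincomycin, which inhibits translation on the ribosomes of plastids. Its dose is 220 µg/ml in the protocol text and 200 µg/ml in the description of the source. The RNA was hybridised to Affymetrix arrays, on which a probe set is a group of probes for one transcript, and each probe set has 1 intensity per array. Nothing in the labels says that the arrays of a group came from separate sowings, so the p-values reflect the spread among these particular arrays, which may be technical.

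Red light converts phytochromes, the plant's red and far-red photoreceptors, to their active form. Active phytochrome enters the nucleus and brings about the breakdown of the phytochrome-interacting factors (PIFs), transcription factors that keep a dark-grown seedling elongating. Genes that the PIFs activate, several of them auxin-response genes, are known to fall early in light, while genes for photosynthesis and the clock are known to be induced as the seedling turns green.

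All 22746 probe sets other than the 64 array controls were tested. Exactly 1 gene was listed for 13513 of them, several genes for 503 and none for 8730 (38.4%). The dark arrays were the least alike of any group: 1549 probe sets differed over 2-fold between them, against 797 between the red arrays, 40 between the dark lincomycin arrays and 9 between the red lincomycin arrays. Control probe sets at the 3′ and 5′ ends of a transcript report on RNA integrity. On dark replicate 1 the actin ratio of the ends was 41.2-fold with one set of actin controls and 18.7-fold with the other. The other 7 arrays gave 2.24-fold to 3.67-fold and 3.17-fold to 6.90-fold. The GAPDH ratio on dark replicate 1 was 23.2-fold and 2.94-fold with its 2 control sets, against at most 5.47-fold and 1.52-fold elsewhere. What the high end ratios of dark replicate 1 did to the results was not tested. In the fit below that leaves out dark replicate 2, dark replicate 1 is the only dark array. Values are therefore given for each dark array, as log2 intensity unless stated otherwise. Red replicate 1 had the lowest mean over 18 spike-in (added RNA) control probe sets, at 6.88, against 8.27 on red replicate 2. That mean was 8.91 and 7.63 on dark replicates 1 and 2 and 8.17 to 8.61 on the lincomycin arrays. Its part in the results was not tested either.

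Red light raised 29 probe sets and lowered 14, which is 43 of 22746 (0.189%) at a Benjamini-Hochberg adjusted p under 0.05 in the limma fit (0.127% higher, 0.0615% lower). Among the 10 with exactly 1 listed gene, 4 rose and 6 fell. IAA29, an auxin-response repressor, fell by 2.80 on the log2 scale, and AT3G02910, an AIG2-like family gene, rose by 2.93. All 43 had red arrays wholly above or wholly below both dark arrays, which was also true of 35.1% of all probe sets. In 41 of the 43 the nearest red and dark arrays were at least 1 log2 unit apart, and the smallest gap was 0.92. That distance was reached by 84 probe sets in all (0.369%), 63 higher (0.277%) and 21 lower (0.0923%), without regard to any test. None of the 1549 probe sets that differed over 2-fold between the dark arrays was called. The number of calls depended strongly on single arrays: with dark replicate 1 left out there were 3, with dark replicate 2 left out 1219, with red replicate 1 left out 0 (2878 at an unadjusted p under 0.05 in limma), and with red replicate 2 left out 1. Leaving out either dark lincomycin array gave 1 and either red lincomycin array 3. A fit of only the 4 arrays compared, without the spread of the lincomycin arrays, called 0 (1549 at an unadjusted p under 0.05 in limma), array weights gave 4 and a block for the replicate number gave 7. Differences between replicates had a standard deviation (log2) of 0.538 for the dark arrays and 0.442 for the red arrays, against 0.211 and 0.224 for the dark and red lincomycin arrays. The direction of all 43 stayed the same in each of these fits, but it could not have changed. Both red arrays already lay on one side of both dark arrays, so this gives no further support.

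**Figure D1:**
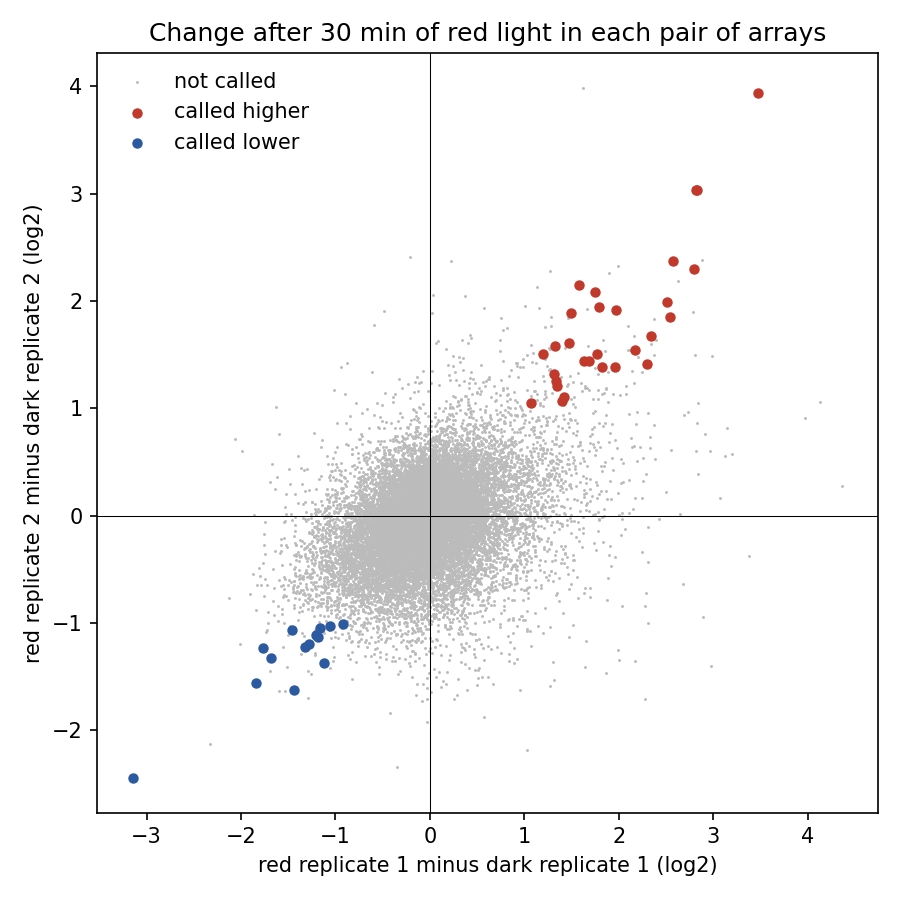
Change after 30 min of red light in 2 pairs of arrays, red replicate 1 minus dark replicate 1 on the horizontal axis and red replicate 2 minus dark replicate 2 on the vertical axis, in log2, with 1 point per probe set (22746). The 29 probe sets called higher (red) and the 14 called lower (blue) lie away from 0 in both pairs, whereas many grey points lie far from 0 along 1 axis only.

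The gene with the strongest decrease was IAA29, which encodes an Aux/IAA protein, a repressor of auxin responses, and is activated by PIFs in darkness and shade. It read 8.41 and 8.33 on the dark arrays and 5.26 and 5.88 on the red arrays. Both red arrays lay far below both dark arrays, and the dark arrays differed little. The decrease was 2.80 ± 0.21 (SE of the limma fit, n = 2 in each group), or 6.95-fold, with limma adjusted p = 0.0121. Here and below the SE uses the spread of all 8 arrays, including the less variable lincomycin arrays, and not that of the dark and red arrays alone. The red mean minus dark replicate 1 alone was -2.84, and minus dark replicate 2 alone it was -2.76. On lincomycin the gene read 8.01 and 7.97 in darkness and 5.69 and 5.64 after light.

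The other PIF-promoted genes that could be measured moved less. Of 24 genes on that list 5 had a named probe set, 1 was called lower and none higher, and the list's median change was -0.44 against 0.0 over all probe sets. HAT2, an auxin-inducible homeodomain gene, read 8.98 and 9.00 in darkness and 8.62 and 8.50 after light (limma adjusted p = 0.211). FHL, which helps carry phytochrome A into the nucleus, read 7.40 and 7.43 in darkness and 6.81 and 6.69 after light (limma adjusted p = 0.258). Both had red arrays below both dark arrays, as 18.2% of all probe sets did. The dark arrays of BIM1, a brassinosteroid-signalling transcription factor, were themselves 6.58 and 8.06, and the red arrays, at 6.92 and 7.58, lay between them. AT1G52820 was the 1 measured member above 0, with a change of 0.29 and overlapping groups. It read 4.21 and 3.74 in darkness and 4.52 and 4.0 after light.

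Among 6 measured Aux/IAA genes IAA29 was the 1 called. IAA20 stood next, at 7.36 and 6.91 in darkness against 6.02 and 6.35 after light (limma adjusted p = 0.141), and the other 4 had changes between -0.20 and 0.04. GH3.3, which encodes an enzyme that conjugates auxin to amino acids, read 7.40 and 7.11 in darkness and 6.40 and 6.83 after light, a change of -0.65 (limma adjusted p = 0.213). The median change over 6 measured auxin synthesis and conjugation genes was -0.03, and none was called.

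The other genes that fell were 5. AT5G02580, whose function is not named in the annotation used, read 8.19 and 8.0 in darkness and 6.35 and 6.44 after light, a decrease of 1.70 ± 0.19 (SE, limma adjusted p = 0.0387). AT5G53880 read 5.61 and 5.34 in darkness and 3.84 and 4.11 after light (limma adjusted p = 0.0449). In both the red arrays lay over 1 unit below the lower dark array.

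A pair of protein kinase genes fell. AT1G56720 read 6.65 and 6.90 in darkness against 5.53 and 5.53 after light (-1.24 ± 0.14, limma adjusted p = 0.0402). AT1G01540 read 8.66 and 8.71 in darkness against 7.50 and 7.66 after light (-1.11 ± 0.13, limma adjusted p = 0.0402). AT2G22900, a galactosyltransferase gene, was the smallest of all 43 calls, at 7.75 and 7.80 in darkness and 6.82 and 6.79 after light (-0.97 ± 0.12, limma adjusted p = 0.0474). In each of the 3 the replicate arrays were close together and the groups did not overlap. The test favours both traits, so they give no further support.

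Of the 4 genes that rose, AT3G02910 changed most. This gene of the AIG2-like (gamma-glutamylcyclotransferase-like) family read 5.97 and 5.89 in darkness and 8.79 and 8.92 after light, 7.60-fold higher (2.93 ± 0.18, SE, limma adjusted p = 0.00957). Replicates differed by far less than the groups. With 1 array left out in turn, the change stayed between 2.86 and 2.99, and that of IAA29 between -3.11 and -2.49. The other called genes lost their call when any single array except dark replicate 2 was left out. In the fit without dark replicate 2 the only dark array is dark replicate 1, which has the high end ratios.

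AT5G15950, which encodes an S-adenosylmethionine decarboxylase, the enzyme that supplies aminopropyl groups for polyamine synthesis, read 5.16 and 5.48 in darkness and 7.47 and 6.89 after light. The lower red array was above the higher dark array by more than 1 unit, and the rise was 3.63-fold (1.86 ± 0.22, SE, limma adjusted p = 0.0402). The paralogue SAMDC read 10.47 and 11.49 in darkness and 11.80 and 11.50 after light, so its groups nearly touched. AT3G25570, another S-adenosylmethionine decarboxylase gene, read 5.74 and 5.18 in darkness and 5.14 and 5.09 after light. Of 3 measured genes of polyamine metabolism, then, 1 rose and the other 2 did not pass the test. Probes for near-identical copies could share signal between these genes.

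AT1G14200, a RING/U-box gene of the kind that encodes ubiquitin ligases, rose from 6.50 and 6.33 in darkness to 7.70 and 7.84 after light (1.35 ± 0.16, SE, limma adjusted p = 0.0410). AT3G53950, related to glyoxal oxidases, rose from 5.93 and 5.92 to 7.00 and 6.97 (1.06 ± 0.13, SE, limma adjusted p = 0.0402). Both had tight replicates and no overlap, traits that the test favours.

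**Figure D2:**
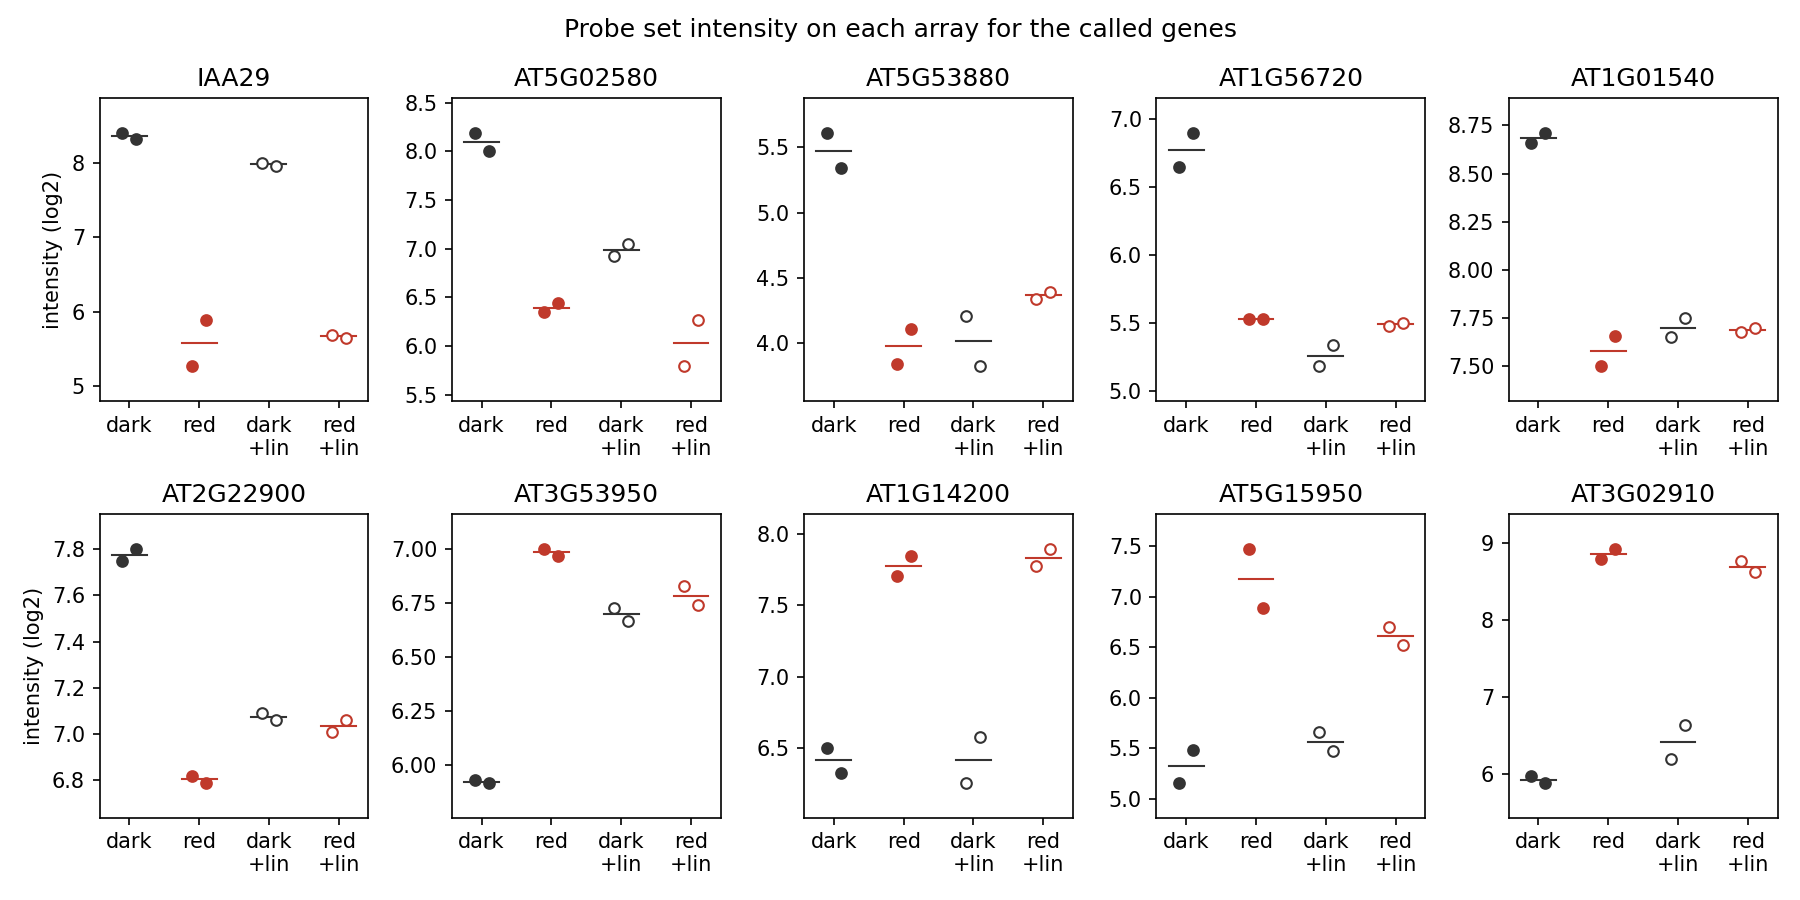
Log2 intensity on each array of the 10 called genes, ordered from the largest decrease to the largest increase, with filled points for arrays without lincomycin and open points for arrays with it (lin), and a line at each group mean (2 arrays per group). The vertical axis has its own range in each panel and does not start at 0. The filled dark and red points do not overlap in any panel, and in IAA29, AT5G02580 and the 4 genes that rose the open points lie in the same order.

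Most called probe sets, 32 of 43, have no listed gene, and they include the largest change of all. Probe set 257262_at read 4.25 and 3.96 in darkness and 7.73 and 7.89 after light, 13.1-fold higher (limma adjusted p = 0.0147). Probe set 254066_at read 3.18 and 3.24 in darkness, near the bottom of the scale, and 6.01 and 6.27 after light. On the other side, 248213_at fell from 10.17 and 9.95 to 8.72 and 8.32, and 248888_at from 5.19 and 4.91 to 3.51 and 3.58. None of these 4 had overlapping groups, as was true of all 43 called.

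Just outside the threshold, 15 genes were taken each way by lowest p among those whose arrays did not overlap. Their limma adjusted p ran from 0.0511 to 0.0729 on the higher side and from 0.0511 to 0.0916 on the lower. The 15 is a set limit and not a count of all such genes. The genes taken are given by their values. GI, the clock gene GIGANTEA, read 5.88 and 5.95 in darkness and 7.21 and 6.85 after light, and was the 1 measured gene of 22 on the clock list. PUB19, a U-box ubiquitin ligase gene, read 6.04 and 6.65 in darkness and 8.20 and 7.89 after light. AT3G06780, a glycine-rich protein gene, had the largest change of these at 2.16, from 5.90 and 6.39 to 7.89 and 8.72. In all 3 the gap between the groups exceeded the distance between the dark arrays. On lincomycin their changes were smaller, at 0.11 for GI, 0.49 for PUB19 and 0.32 for AT3G06780. The dark lincomycin arrays of GI, at 6.87 and 6.80, already lay near its red arrays.

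Further genes stood on both sides. The MYB-like gene AT1G70000 read 5.90 and 5.58 in darkness and 6.88 and 7.04 after light. The glutaredoxin-family gene AT1G64500 read 3.98 and 4.19 in darkness and 5.20 and 5.70 after light. On the lower side SBE2.2, a starch branching enzyme gene, read 6.86 and 6.76 in darkness and 5.93 and 6.03 after light. I-2, which encodes a protein phosphatase inhibitor, read 7.05 and 7.27 in darkness and 6.19 and 6.33 after light. On lincomycin AT1G70000 changed by 0.43, AT1G64500 by 0.63, SBE2.2 by -0.1 and I-2 by 0.43.

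AFR, an F-box protein gene that acts in phytochrome A signalling, was separated by at least 1 log2 unit without passing the test. It read 5.37 and 4.85 in darkness and 7.22 and 6.39 after light (1.69, limma adjusted p = 0.0916), and on lincomycin 5.16 and 5.30 in darkness and 6.26 and 6.28 after light. AT1G32690 read 6.44 and 6.16 in darkness and 8.77 and 7.76 after light, and on lincomycin the values were 6.37 and 6.49 in darkness against 7.48 and 8.25. In both genes the red arrays differed from each other more than the dark arrays did.

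The same light treatment was measured on lincomycin with 4 other arrays, which share with the first comparison only the model's estimate of spread. All 29 probe sets called higher had both red lincomycin arrays above both dark lincomycin arrays, as 21.7% of all probe sets did. Their median change was 1.69 without lincomycin and 1.40 on it, and 18 changed by at least 1 log2 unit there. Of the 14 called lower, 7 had both red lincomycin arrays below both dark lincomycin arrays, against 22.9% of all probe sets. Their median change was -1.25 without lincomycin and -0.13 on it. The test of the difference itself, the interaction of light and lincomycin, passed for 0 probe sets in limma (2359 at an unadjusted p under 0.05, 10.4%). Of the 43 called, 22 had an unadjusted interaction p under 0.05, and their smallest adjusted p was 0.316, so no difference between media was called for any of them.

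**Figure D3:**
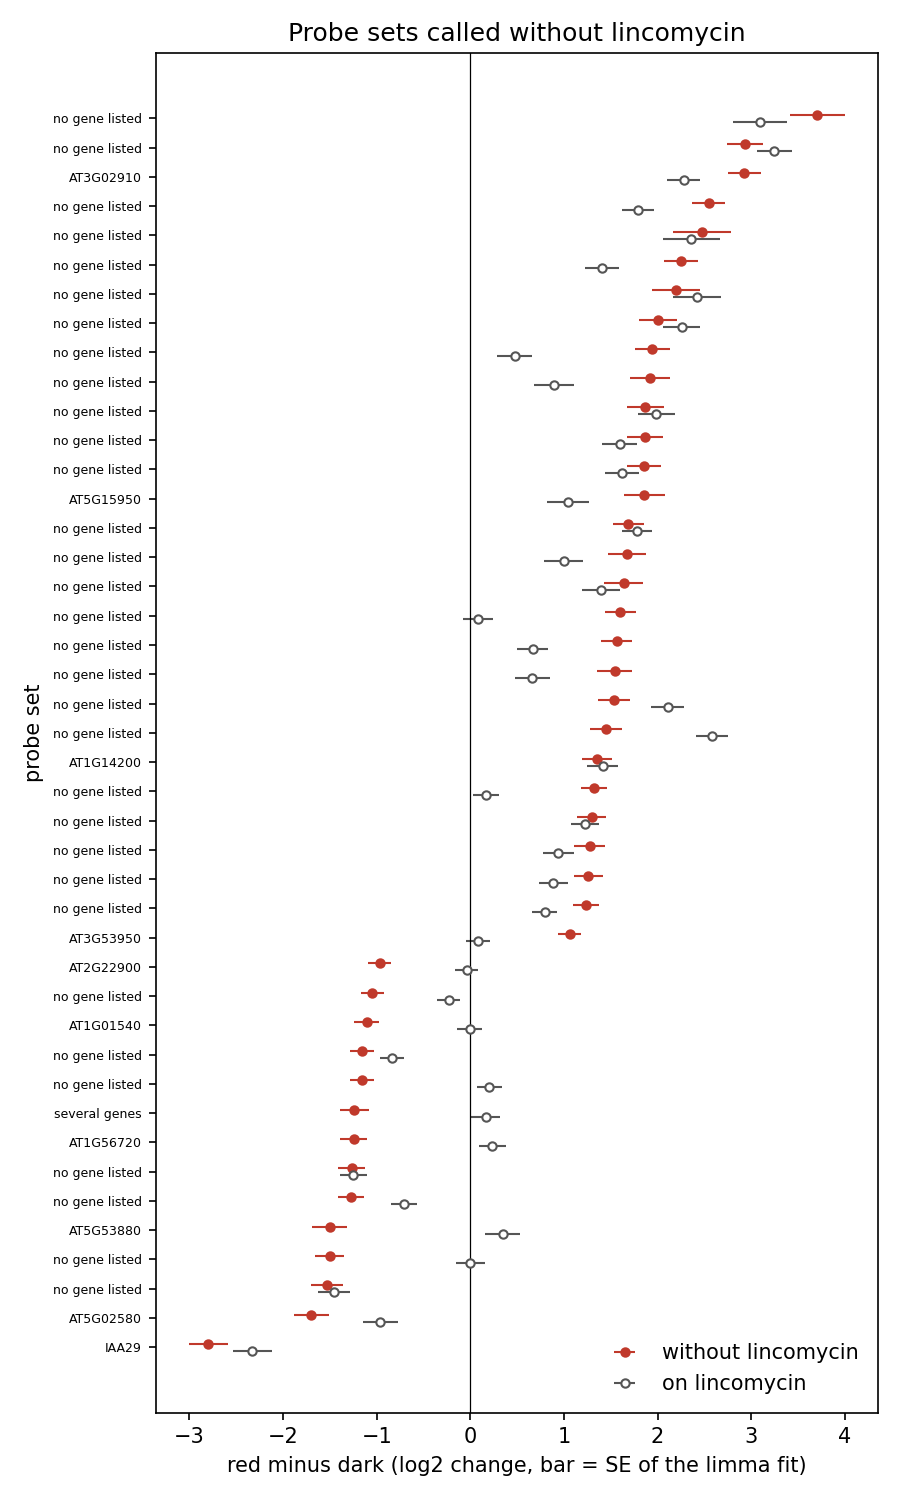
Log2 change after red light for the 43 probe sets called without lincomycin (filled red points) and the change of the same probe sets on lincomycin (open points), sorted by the first, with the standard error of the limma fit as bars (n = 2 arrays per group). Open points lie right of 0 for all 29 raised probe sets and near 0 for several of the 14 lowered ones.

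AT1G14200 changed by 1.35 without lincomycin and 1.41 on it, and AT3G02910 by 2.93 and 2.28. For AT3G53950 the changes were 1.06 and 0.08, and for AT2G22900 they were -0.97 and -0.04. In these last genes the dark lincomycin arrays were already near the red level. The comparison of the dark groups of both media uses the same dark arrays as the light comparison, so only values are set side by side. AT3G53950 read 6.73 and 6.67 on the dark lincomycin arrays, AT1G56720 read 5.18 and 5.34, and AT1G01540 read 7.65 and 7.75. For IAA29 and AT1G14200, by contrast, the dark lincomycin arrays, at 8.01 and 7.97 and at 6.26 and 6.58, lay near the dark arrays.

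No measured nuclear gene for photosynthesis was called, but few were measured. A named probe set was present for 3 of 20 antenna genes and 7 of 43 photosystem, electron transport and Calvin cycle genes. Whether other members are among the 32 called probe sets with no listed gene is not known. All 3 measured antenna genes, the LHCB4 genes that encode the minor light-harvesting protein CP29, had red arrays above both dark arrays, as 16.9% of all probe sets did. LHCB4.2 read 8.20 and 9.03 in darkness and 9.71 and 10.28 after light (1.38, limma adjusted p = 0.156), and on lincomycin its change was 0.01. LHCB4.1 changed by 0.38 and LHCB4.3 by 0.44. Of 7 measured photosystem, electron transport and Calvin cycle genes, PSBY, a photosystem II subunit gene, came closest to the threshold, at 8.75 and 9.00 in darkness and 9.89 and 9.89 after light (limma adjusted p = 0.0800). PRK, the Calvin cycle enzyme phosphoribulokinase, lay on the other side at 10.14 and 10.12 in darkness and 9.76 and 9.37 after light. The list's median change was 0.12. Among 17 measured thylakoid lumen and photosystem assembly genes the median was 0.07, with PSB27, a photosystem II assembly factor gene, highest at 0.72 (9.11 and 9.34 in darkness, 9.91 and 9.98 after light).

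No measured gene of chlorophyll synthesis was called either, with 9 of the 31 on the list measured. Of 9 measured genes 7 were below 0, with a median change of -0.20, which was -0.08 against dark replicate 1 alone and -0.43 against dark replicate 2 alone. GSA1, which makes the first committed precursor, 5-aminolevulinate, read 8.73 and 8.61 in darkness and 8.45 and 8.24 after light. PORB, a light-dependent protochlorophyllide reductase gene, read 11.31 and 11.61 in darkness and 11.21 and 11.15 after light.

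Plastid-encoded genes lay on the higher side on average, with none called. The median change over 69 genes was 0.44, 51 were above 0, and 19 (27.5%) had red arrays above both dark arrays, against 49.5% and 16.9% of all probe sets. The size depended on which dark array was the baseline, 0.66 against replicate 1 and 0.21 against replicate 2, and on lincomycin the median change was -0.02. By complex, the medians were 0.61 for 15 photosystem II genes, 0.72 for 5 photosystem I genes, 0.54 for 6 ATP synthase genes and 0.41 for 10 NDH genes. They were 0.13 for 6 cytochrome b6f genes, 0.20 for 7 large and 0.24 for 8 small ribosomal subunit genes, and 0.26 for 4 RNA polymerase genes. Against dark replicate 2 alone the ribosomal medians were -0.35 and -0.10, below 0, whereas those of photosystems II and I were 0.48 and 0.32.

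The photosystem II gene psbC, which encodes the inner antenna protein CP43, read 6.34 and 6.83 in darkness and 8.01 and 8.76 after light (1.80, limma adjusted p = 0.160). For psbJ, a small photosystem II subunit gene, the change was larger, 1.84, but the dark arrays were themselves 5.68 and 7.78 and the red arrays 7.89 and 9.27. The psbA gene, which encodes the D1 reaction centre protein, read 7.00 and 5.76 in darkness and 6.24 and 6.26 after light, within the range of the dark arrays. The ATP synthase gene atpB had dark arrays far apart, at 7.71 and 11.28, with 9.86 and 11.34 after light.

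Mitochondria-encoded genes had a median change of 0.24 over 16 genes, with 14 above 0 and 9 (56.2%) with red arrays above both dark arrays, against 16.9% of all probe sets. Here too none was called, and on lincomycin the median was -0.05. Against dark replicate 2 the median was 0.36 and against replicate 1 it was 0.16. The respiratory complex I gene nad1 read 4.16 and 3.90 in darkness and 5.05 and 4.69 after light (limma adjusted p = 0.117). Complex IV genes cox1 and cox2 changed by 1.30 and 0.71, with cox1 at 7.49 and 6.56 in darkness and 7.72 and 8.93 after light. Plastid genes were lowest on dark replicate 1 (median deviation from each gene's mean over the 8 arrays -0.61), while mitochondrial genes were lowest on dark replicate 2 (-0.46).

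**Figure D4:**
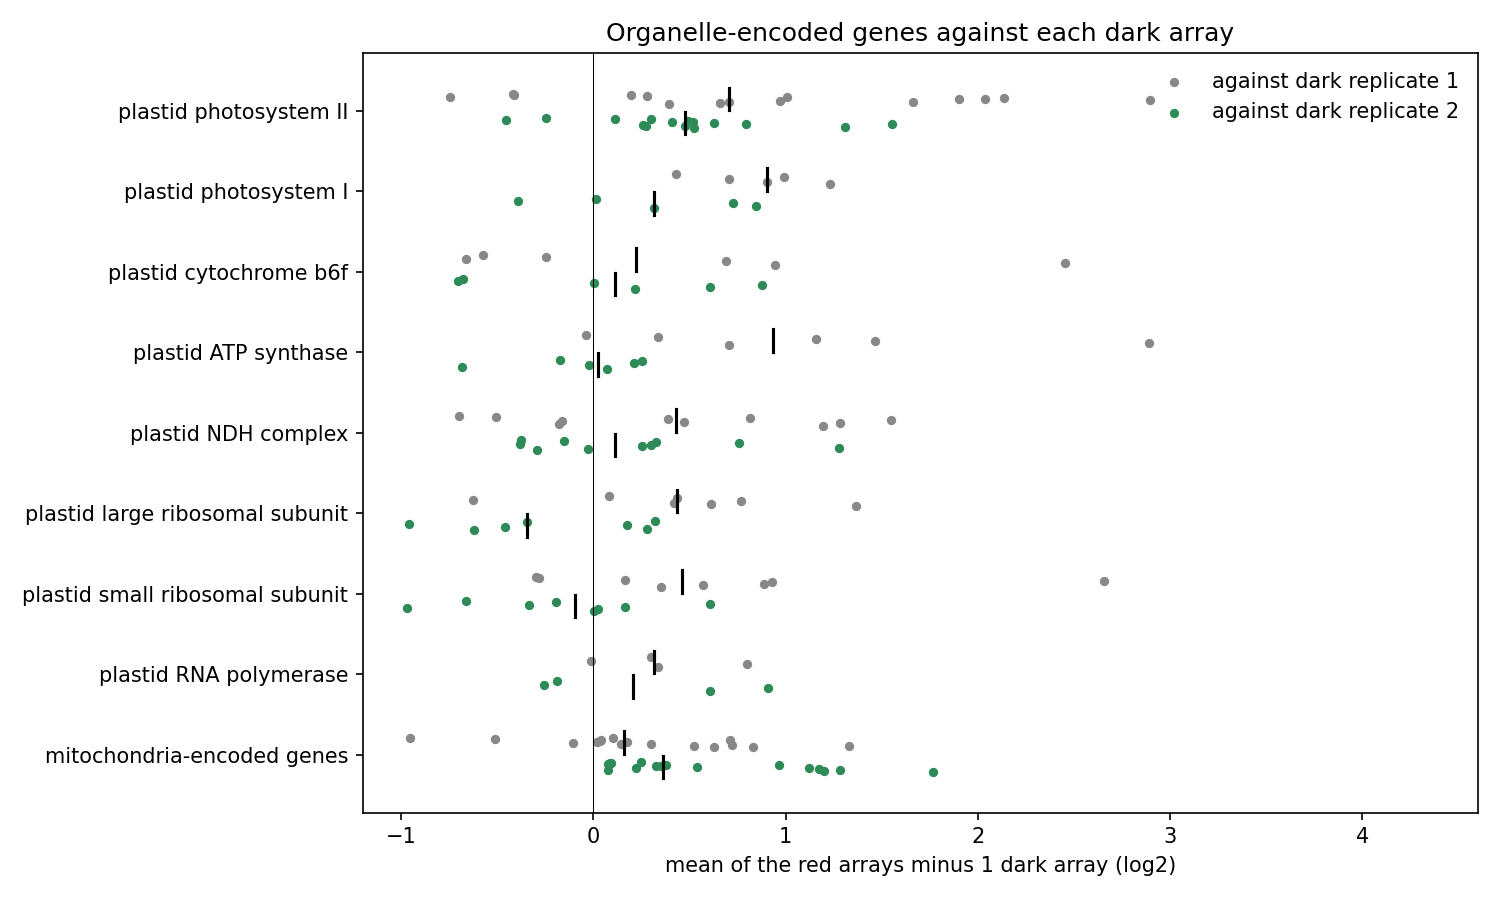
Mean of the red arrays minus a single dark array (log2) for plastid-encoded genes by complex and for mitochondria-encoded genes, with grey points against dark replicate 1, green points against dark replicate 2 and black bars for medians. The photosystem medians are above 0 against either dark array, and the ribosomal subunit medians are above 0 against replicate 1 and below it against replicate 2.

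Growth genes split. Of 12 measured cell wall loosening genes 6 were above 0 and 6 below, none was called, and the median change was -0.17. EXPB1, an expansin gene, read 8.48 and 8.75 in darkness and 7.95 and 7.89 after light (-0.69, limma adjusted p = 0.174), and on lincomycin it changed by -1.01. The xyloglucan-modifying enzyme gene XTH16 read 9.32 and 8.80 in darkness and 8.44 and 8.37 after light. EXPA8, another expansin gene, read 8.31 and 9.98 in darkness and 10.29 and 10.61 after light, with both red arrays above both dark arrays. The gibberellin receptor gene GID1B read 5.00 and 5.89 in darkness and 6.04 and 6.23 after light, and EIN3, the ethylene-response transcription factor gene, read 8.09 and 9.03 against 7.59 and 8.15.

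No measured stress, pigment or ribosome gene was called. Those measured were 5 of 31 stress genes, 5 of 24 flavonoid genes and 38 of 67 cytosolic large ribosomal subunit genes. The zinc finger gene STZ, induced by many stresses, read 4.69 and 4.56 in darkness and 5.36 and 5.37 after light (0.74, limma adjusted p = 0.109), and the median of its 5 measured list members was -0.03. UGT78D2, a flavonoid glucosyltransferase gene, read 5.85 and 5.25 in darkness and 6.39 and 6.38 after light, a change of 0.83 (0.96 on lincomycin, limma adjusted p without it 0.164). Among 38 genes of the cytosolic large ribosomal subunit 27 were below 0 and 13 (34.2%, against 18.2% of all probe sets) had red arrays below both dark arrays, with a median change of -0.18 and one of 0.21 on lincomycin. The lowest p there was that of AT4G29410, at 9.19 and 8.83 in darkness and 8.16 and 8.29 after light (limma adjusted p = 0.134). All 5 measured reference genes, of the kind used to normalize other assays, were below 0 with a median of -0.37, and none was called. Of the other short lists, 2 genes induced by darkness or sugar starvation had a median of -0.05, and HYH, a light-induced bZIP gene, changed by 0.13.

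Markers of the tissue were also read. In whole seedlings a change in the number of cells of a type and a change in RNA per cell cannot be told apart. Of 4 measured root markers, 2 had red arrays above both dark arrays (16.9% of all probe sets did), none was called, and the median was 0.35, with -0.40 on lincomycin. EXPA7, an expansin gene of root hair cells, read 4.40 and 4.80 in darkness and 5.91 and 5.56 after light. The median level of the root markers was 4.59 and 4.91 on the dark arrays and 5.82 and 5.44 on the red arrays. That difference came from the expansin genes EXPA7 and EXPA18, which changed by 1.14 and 0.63. The other markers hardly moved, with changes of 0.07 for XTH21 and -0.05 for AT1G30870, so the root markers did not rise as a group. The part of root tissue in the other results was not tested. Both measured flower and pollen markers, AGL104 and MGH3, stayed between 3.12 and 3.94 on all 4 arrays, near the bottom of the scale. ICL, the isocitrate lyase of seed lipid mobilisation in young seedlings, read 11.18 and 12.28 in darkness and 12.18 and 12.42 after light.

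**Figure D5:**
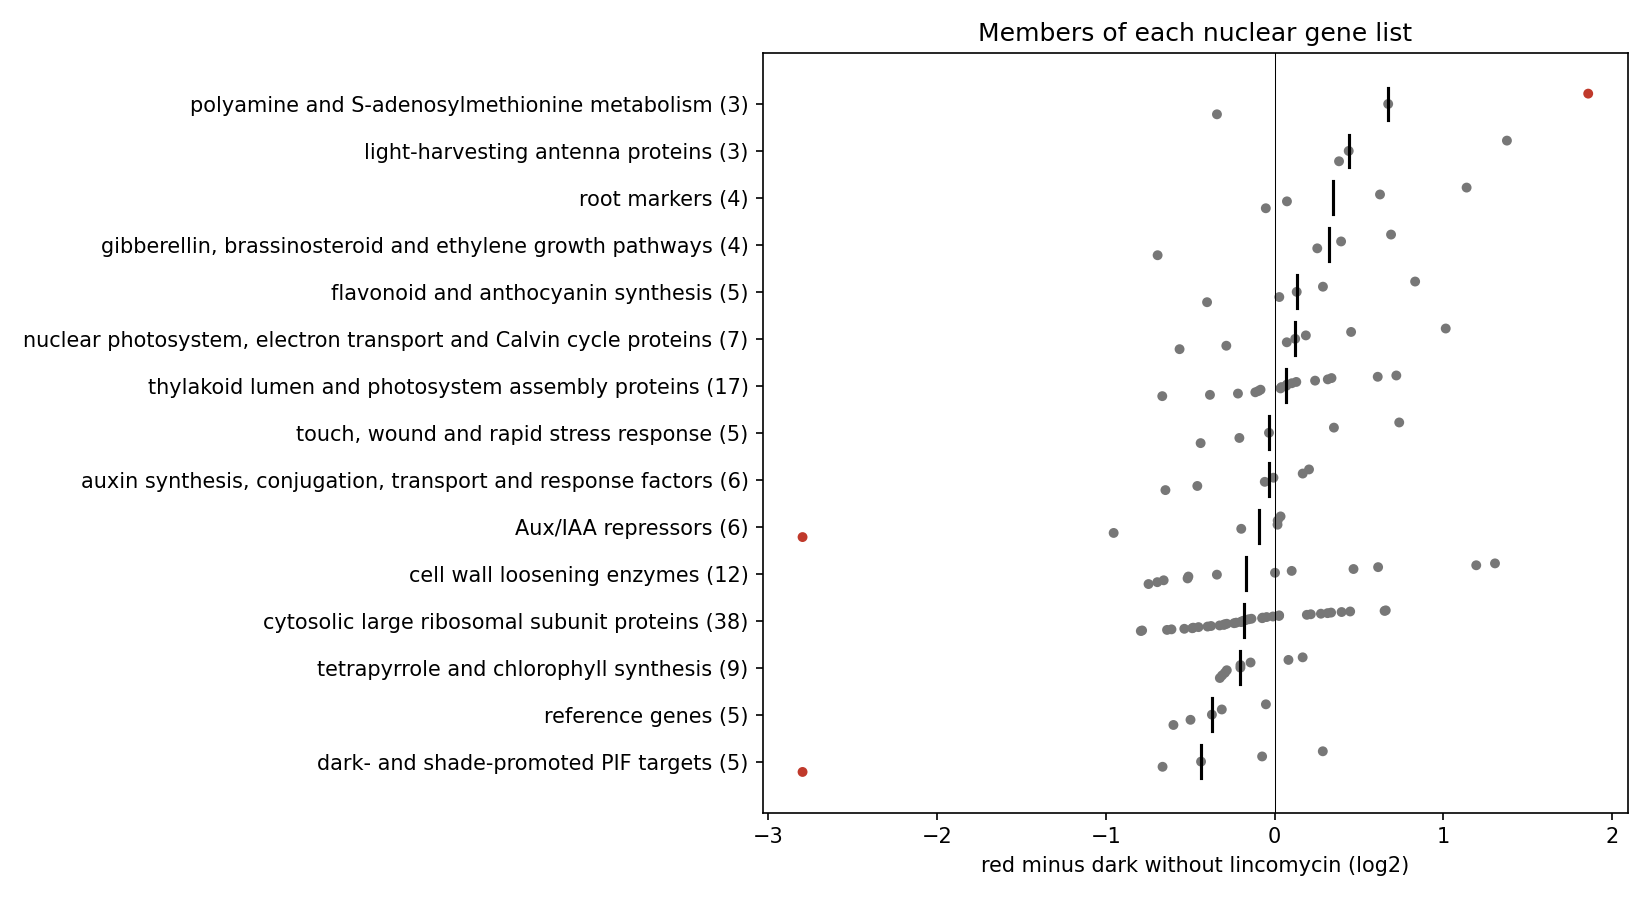
Change after red light without lincomycin (red minus dark, log2) of each measured member of the nuclear gene lists with at least 3 measured members, with the number measured in parentheses, black bars for medians and red points for called genes. The called points are AT5G15950 in polyamine metabolism and IAA29, which belongs to both the Aux/IAA and the PIF target lists.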

How the data were processed

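The deposited table holds 1 linear intensity per probe set and array, made by the authors with RMA per the submitters' processing notes, which give no version. The log2 of each deposited intensity was taken. Group means of all 8 arrays were fitted with limma 3.58.1 (lmFit and eBayes, 4 residual and 3.19 prior degrees of freedom, no block) in R 4.3.3. Tests were two-sided, adjusted over all 22746 probe sets, with a threshold of 0.05. Genes came from the platform annotation, updated through RefSeq (13436 of 13513 probe sets matched). Named genes were the called ones, the next 15 each way by p without overlap, the 3 lowest p in each direction of each list, and by probe ID the 2 largest called changes each way with no listed gene. AFR, AT1G32690 and other genes named outside it, such as PORB, psbA and atpB, were chosen after their values were seen. Gene lists held 483 genes, of which 80 were measured, and 2 lists added later held 97, of which 55 were measured. A gene was represented by its probe set with the highest mean. The comparison, members and lists were chosen with earlier results of these data known. No label says that replicate numbers mark a shared batch, so no block was used (correlation of same-numbered deviations from -0.325 to 0.441 over pairs of groups). The fit was tested on simulated data. A promoter motif count that had been planned was not run, and no sequences were used here. Tables and figures used Python 3.11.15, numpy 2.4.6, pandas 2.3.3 and matplotlib 3.10.9.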

Additional observations from a re-analysis of the deposited data

Results flagged for a closer look

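Of 177 genes and probe sets chosen by the naming rules or as PRA1 family members, 31 had values of opposite direction on the media. In these the red arrays lay wholly on one side of the dark arrays without lincomycin and wholly on the other side on lincomycin. The interaction of light and lincomycin passed for none of them in limma (adjusted p from 0.316 to 0.638), so a difference between media was not called. Many of the 177 had been chosen for a low p or for non-overlap without lincomycin, which favours being counted here. The share of all probe sets with such opposite values was not counted, so the 31 are not read as an excess. The red lincomycin arrays lay above both dark lincomycin arrays in 21.7% of all probe sets and below both in 22.9%. In some of the 31 the change on lincomycin was close to 0, at 0.09 for AT1G26300, 0.05 for AT1G18170 and -0.05 for nad1. In others it was larger, such as 0.79 for AT5G22280. The values below are the change without lincomycin minus the change on it, in log2. Where the change on lincomycin was close to 0, they mostly give the change without it.

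Among called genes these were -1.48 for AT1G56720 and -1.85 for AT5G53880. Among genes just outside the threshold on the higher side, AT3G44430 had 1.41, AT2G07751 had 1.68 and AT3G06470, of the fatty acid elongase family, had 0.99. On the lower side the values were -1.38 for AT1G26300, -1.37 for AT3G50900, -1.72 for AT5G22280, -1.52 for AT5G46020 and -1.01 for AT2G39920. They were -1.64 for AT3G59370, -0.94 for AT1G05410, -1.33 for I-2 and -1.43 for AT3G15770.

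Among list members, the growth genes GID1C, EXPA15, EXPA7, EXPB3 and XTH19 had 0.64, 0.71, 1.58, 0.88 and -0.90. SAMDC had 0.84, the antenna gene LHCB4.1 had 0.79, ATL8 had 0.63 and AT1G18170, of the thylakoid lumen and assembly list, had -0.44. The ribosomal protein genes AT5G67510 and AT4G29410 had -0.81 and -1.18, and the plastid ribosomal gene rps14 had -0.93. The mitochondrial genes ccb452 and nad1 had 1.22 and 0.89. PRA1.B1, PRA1.B4 and PRA1.B6 had 0.92, 0.87 and 0.66.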

How the results depend on the processing

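The 43 calls without lincomycin became 96 with array medians shifted to a common value (78 higher, 81.2%, against 67.4%; all probe sets shifted by 0.09; 41 shared), 47 with quantile normalization (83.0% higher, 32 shared) and 28 with values raised to the 20th percentile (39.3% higher, 11 shared, with 4 of the 10 named genes). They became 35 with trend and robust (80.0% higher, 31 shared) and 43 without the dimmest 30% of probe sets (76.7% higher, 37 shared). Array weights gave 4, and only the 4 arrays without lincomycin gave 0 (1549 at an unadjusted p under 0.05 in limma). Leaving out 1 array gave from 0 to 1219 calls. The interaction gave 0 calls, or 609 without dark replicate 2 and 0 to 609 over all single arrays left out. A gap of at least 1 log2 unit with no test, chosen after seeing the data, gave 84. With the replicate block there were 7 calls, all among the 43. No label says what the numbers share, and 2 arrays per group cannot settle whether they pair: same-numbered deviations correlated at 0.441 between dark and red and at 0.130 between the lincomycin groups, and at -0.0912 to -0.325 over the other 4 pairs of groups. All 43 kept their direction under each of these fits. A change of sign was hardly possible where red and dark arrays do not overlap (smallest gap among the 43 0.92), so kept signs give little support. Of 832 values of 52 genes under the alternatives, 623 stayed on their side of the threshold, 66 newly passed, 143 no longer passed and 0 changed sign. Signals near the bottom of the scale limit dim genes. The planned promoter motif count was not run.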

Other observations

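Gene families that share a symbol were read after their values were seen, so they carry no test: 43 families had at least 5 members. The highest median was that of 10 EXPA expansin genes, at 0.63 (0.64 against dark replicate 1 and 0.33 against replicate 2). All 10 EXPA genes were above 0, as 49.5% of all probe sets were. In 5 of them the red arrays lay above both dark arrays (16.9% of all probe sets), and none was called. On lincomycin their median was -0.21. The PRA1 family, which encodes small membrane proteins of vesicle traffic, had 9 members, all above 0, with a median change of 0.43 and 7 with red arrays above both dark arrays (16.9% of all probe sets). None was called, and the median on lincomycin was 0.04. PRA1.B1 read 8.03 and 8.06 in darkness and 8.79 and 8.80 after light, while the dark lincomycin arrays read 8.91 and 8.93. PRA1.E read 5.82 and 7.02 in darkness and 7.70 and 8.35 after light, with 8.12 and 8.16 on the dark lincomycin arrays.

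The SWEET sugar transporter genes numbered 14, all above 0, with a median of 0.24 and one of 0.01 on lincomycin. Against dark replicate 1 alone, 10 of the 14 were above 0. Their median level was low, at 3.97 and 3.69 on the dark arrays and 4.33 and 3.61 on the red arrays. On the lower side, 6 NRPB genes, which encode subunits of RNA polymerase II, had a median of -0.60 (-0.97 against dark replicate 1 and -0.26 against replicate 2). The 6 LSM genes, which encode RNA-binding proteins of splicing and decay, had a median of -0.46 (-0.91 against dark replicate 1 and -0.13 against replicate 2). On lincomycin the NRPB and LSM medians were 0.22 and 0.31.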
